A study of Homo sapiens with 12 samples.

Results

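The polyamine metabolism genes are 10 genes, found by their names among the 19973 genes of the table, that make, break down or control putrescine, spermidine and spermine. They were followed in 12 RNA sequencing libraries from human prostate cancer cell lines, in 4 groups of 3. C4-2 is a castration-resistant line derived from LNCaP cells, and 22Rv-1 is a line known for carrying androgen receptor splice variants of its own. C4-2 ARv7 cells overexpressed ARv7, a splice variant of the androgen receptor that lacks the ligand-binding domain, and C4-2 control cells carried the vector control. 22Rv-1 shARv7 cells were depleted of ARv7 with a short hairpin, and 22Rv-1 shcontrol cells carried its vector control. All 4 groups were infected with lentivirus, the ARv7-expressing and ARv7-depleted cells were generated under puromycin selection, and all grew in RPMI medium with fetal bovine serum. Each line was altered in 1 direction only, the sources used here do not say whether the cells were a clone or a pool, and the 3 libraries of a group came from triplicate dishes. The p-values therefore measure the spread between dishes, which may be technical.

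Polyamines are small positively charged molecules that bind nucleic acids and are needed for growth. Ornithine decarboxylase makes putrescine from ornithine, and S-adenosylmethionine decarboxylase makes the aminopropyl donor with which spermidine synthase and spermine synthase extend it. An acetyltransferase and oxidases run the pathway backwards. Antizymes bind ornithine decarboxylase and send it to the proteasome, and antizyme inhibitor holds antizymes away from it. The prostate is known for high polyamine synthesis, and ornithine decarboxylase and spermidine synthase are known as targets of MYC.

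RefSeq promoter windows, here the 250 bases before a start site in GRCh38.p14, were examined for 7 of the 10 genes. No window of SMOX, PAOX or AZIN1 was examined, so the motif counts below leave these genes out. The 7 genes had 10 windows, because ODC1 and AMD1 have more than 1 start site. The AMD1 windows at chr6:110874534-110874783 and chr6:110874535-110874784 are almost the same stretch, so the 10 windows are not all separate. An E-box, CACGTG on either strand, which is the core site of MYC with MAX, was in 2 of the 10 windows, against 6.34% of all 35116 windows. The half-site of the androgen response element, TGTTCT on either strand, was in none of the 10, against 12.4% of all windows. A match is a description of letters, and its absence says only that these letters are not in the window. The window at the downstream start of ODC1 and that of SRM are printed because they hold the E-box, shown in capitals. The window at the upstream start of ODC1, which lacks it, is printed beside them. Those of AMD1 and SMS are printed because these genes had the largest differences in C4-2 cells among the 9 tested. The ODC1 windows lie at chr2:10448013-10448262 for the downstream start and chr2:10448328-10448577 for the upstream start, both on the minus strand. The SRM window is chr1:11060019-11060268 on the minus strand. The AMD1 window, 1 of its 3, is chr6:110874534-110874783 on the plus strand and that of SMS is chrX:21940459-21940708 on the plus strand.
ODC1, downstream start: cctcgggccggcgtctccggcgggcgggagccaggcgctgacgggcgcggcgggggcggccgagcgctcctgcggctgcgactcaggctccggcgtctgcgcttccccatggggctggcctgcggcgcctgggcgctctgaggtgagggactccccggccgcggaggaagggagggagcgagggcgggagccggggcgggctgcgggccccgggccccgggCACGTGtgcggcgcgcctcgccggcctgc
ODC1, upstream start: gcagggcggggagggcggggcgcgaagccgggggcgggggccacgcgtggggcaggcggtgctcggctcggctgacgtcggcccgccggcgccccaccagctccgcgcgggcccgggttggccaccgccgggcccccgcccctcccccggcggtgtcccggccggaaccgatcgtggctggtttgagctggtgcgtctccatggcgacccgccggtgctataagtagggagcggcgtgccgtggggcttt
SRM: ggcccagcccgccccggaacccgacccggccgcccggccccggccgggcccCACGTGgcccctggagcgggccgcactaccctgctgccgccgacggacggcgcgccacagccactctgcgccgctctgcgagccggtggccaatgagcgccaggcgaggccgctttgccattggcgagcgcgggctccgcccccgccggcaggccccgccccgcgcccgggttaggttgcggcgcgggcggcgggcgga
AMD1: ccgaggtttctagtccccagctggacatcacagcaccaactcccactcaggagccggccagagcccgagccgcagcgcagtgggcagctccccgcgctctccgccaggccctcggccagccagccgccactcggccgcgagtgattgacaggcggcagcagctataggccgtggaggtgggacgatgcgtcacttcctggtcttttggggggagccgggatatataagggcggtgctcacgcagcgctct
SMS: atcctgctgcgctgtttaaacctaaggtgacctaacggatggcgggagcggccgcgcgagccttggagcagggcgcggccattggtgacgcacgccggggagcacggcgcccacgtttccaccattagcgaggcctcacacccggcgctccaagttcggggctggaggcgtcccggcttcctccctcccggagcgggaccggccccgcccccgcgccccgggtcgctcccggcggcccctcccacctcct
The E-box began 29 bases before the downstream start of ODC1 and 199 bases before the start of SRM.

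The libraries held 12318529 to 14672948 counts each. The C4-2 control library of replicate 3 stood apart from the other libraries of its group. Chi-square per degree of freedom against them was 12.3 and 6.85, compared with 2.11 to 4.64 for the other pairs of libraries within a group. Ribosomal protein genes took 7.82 to 8.03% of counts in C4-2 ARv7 cells and 9.29 to 10.7% in C4-2 control cells, and mitochondrially encoded genes 3.30 to 3.52% and 4.07 to 4.66%. In 22Rv-1, ribosomal protein genes took 7.98 to 8.45% in shARv7 cells and 6.85 to 7.17% in shcontrol cells, and mitochondrially encoded genes 3.34 to 3.43% and 3.94 to 3.98%. KLK3, a prostate luminal marker, averaged 2539 ± 31.9 CPM, counts scaled to library size, in C4-2 ARv7 cells and 672 ± 43.2 CPM in C4-2 control cells, and 23.4 ± 2.89 CPM in 22Rv-1 shARv7 cells and 14.98 ± 1.18 CPM in 22Rv-1 shcontrol cells (SD, n = 3 each). Markers of other cells were low. The 5 fibroblast markers summed to 15.3 to 17.4 CPM in C4-2 ARv7 cells and 7.94 to 9.58 CPM in C4-2 control cells. DCN and LUM were at 0 in C4-2 control cells. PDGFRB averaged 4.4 ± 1.1 CPM in C4-2 ARv7 cells and 0.35 ± 0.25 CPM in C4-2 control cells (SD, n = 3 each). The sums were 22.2 to 26.4 CPM in 22Rv-1 shARv7 cells and 39.4 to 43.0 CPM in 22Rv-1 shcontrol cells. Between these groups LUM was lower in shARv7 cells, at 2.31 against 22.1 CPM, and DCN at 0.17 against 2.33 CPM. COL1A1 was higher, at 21.1 against 16.9 CPM. Blood, endothelial and basal markers, each list summed on its own, came to 10.2 CPM or less in every library, and HBB was at 0 in all libraries. What part these shares and markers have in the results was not tested.

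In C4-2 cells the polyamine genes moved in both directions. SMS, ODC1, SMOX and SAT1 were higher in C4-2 ARv7 cells than in C4-2 control cells, AMD1, OAZ1 and OAZ2 were lower, and SRM and AZIN1 did not pass the test. In 22Rv-1 cells SAT1, AMD1 and OAZ2 were higher in shARv7 cells than in shcontrol cells, OAZ1 was slightly lower, and ODC1, SRM, SMS, SMOX and AZIN1 did not pass. PAOX had too few counts to be tested in either line. A call means an adjusted p under 0.05 by the quasi-likelihood test of edgeR, adjusted by Benjamini-Hochberg over all genes tested in that line. These are bulk RNA values, in which fewer cells of a kind and less RNA per cell cannot be told apart.

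Calls were common over all genes, so the counts of polyamine genes are read against them. In C4-2 cells 7 of the 9 tested polyamine genes were called, 4 higher and 3 lower, while 59.1% of all 12783 genes tested were called, 29.6% higher and 29.5% lower. In 22Rv-1 cells 4 of 9 were called, 3 higher and 1 lower, while 48.0% of all 13459 genes were called, 23.9% higher and 24.1% lower. The median size of the log2 fold change was 0.55 over the polyamine genes and 0.34 over all genes in C4-2 cells. In 22Rv-1 cells it was 0.11 over the polyamine genes and 0.22 over all genes. The signed median was 0.10 for the polyamine genes in C4-2 and 0.08 in 22Rv-1, against 0.005 and 0.009 for all genes. With total counts in place of TMM scaling the C4-2 median over all genes was 0.15, and 67.2% of the calls were higher against 50% with TMM.

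**Figure D1:**
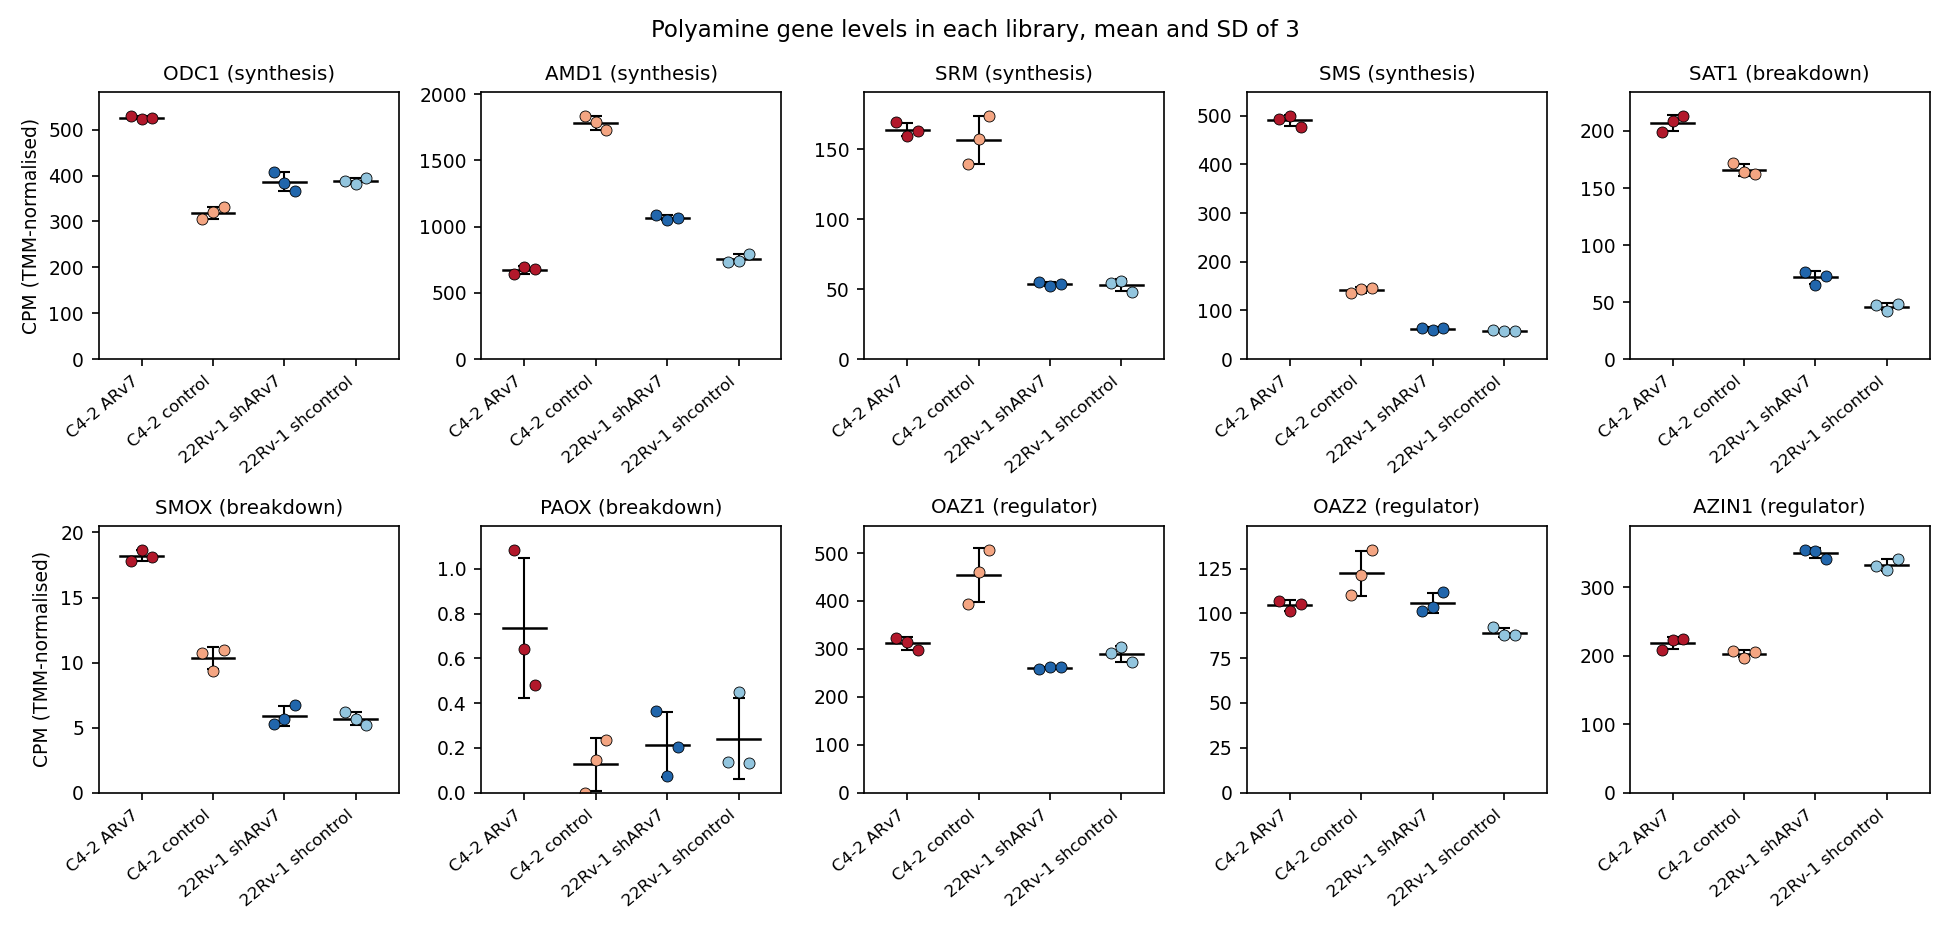
Level of each polyamine gene in TMM-normalised CPM (vertical axis, from 0, with its own scale in each panel) for the 3 libraries of each group, with the mean as a line and the SD as a bar. SMS stood at 478 to 499 CPM in C4-2 ARv7 cells and below 146 CPM in all other libraries, and AMD1 was highest in C4-2 control cells at 1729 to 1833 CPM.

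The first step of synthesis was higher in C4-2 ARv7 cells. ODC1, the gene of ornithine decarboxylase at chr2:10439968-10448327 on the minus strand of GRCh38 (ENSG00000115758), had 529, 523 and 525 CPM in C4-2 ARv7 libraries, against 304.5, 319.9 and 331 CPM in C4-2 control libraries. All 3 ARv7 libraries lay within a few CPM of each other and far above the control libraries, with no overlap. The log2 fold change was 0.71 (SE 0.055), or 1.64-fold, with an adjusted p of 1.33e-09 by edgeR. In 22Rv-1, ODC1 had 408, 384 and 367 CPM in shARv7 libraries, against 389, 382 and 394 CPM in shcontrol libraries. The groups overlapped, the log2 fold change was -0.004 with a 95% interval of -0.10 to 0.09, and the adjusted p was 0.949 by edgeR.

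AMD1 gave opposite calls in the 2 lines. It encodes S-adenosylmethionine decarboxylase, which supplies the aminopropyl groups, and lies at chr6:110874770-110898879 on the plus strand (ENSG00000123505). It had 641, 699 and 679 CPM in C4-2 ARv7 libraries, against 1833, 1791 and 1729 CPM in C4-2 control libraries. The ARv7 libraries all lay below every control library, by a log2 fold change of -1.42 (SE 0.059), or 2.67-fold lower, with an adjusted p of 8.53e-14 by edgeR. In 22Rv-1, AMD1 had 1085, 1048 and 1065 CPM in shARv7 libraries, against 735, 744 and 795 CPM in shcontrol libraries. There the depleted cells lay above their control in every library, by a log2 fold change of 0.50 (SE 0.040), or 1.41-fold, with an adjusted p of 4.27e-18 by edgeR. The annotation names 4 AMD1 pseudogenes, and the sources used here do not say how reads shared with them were counted.

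The aminopropyl transferases behaved differently from each other. SMS, the gene of spermine synthase at chrX:21940709-21994837 on the plus strand (ENSG00000102172), had 494.5, 499 and 478 CPM in C4-2 ARv7 libraries, against 136, 144.5 and 146 CPM in C4-2 control libraries. This was the largest fold among the 9 tested polyamine genes, 3.43-fold, with a log2 fold change of 1.78 (SE 0.057) and an adjusted p of 1.58e-15 by edgeR. Its level in 22Rv-1 was 64.0, 58.7 and 64.6 CPM in shARv7 libraries, against 59.1, 56.8 and 58.5 CPM in shcontrol libraries. Here the groups overlapped, with a log2 fold change of 0.11 and an adjusted p of 0.197 by edgeR.

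SRM, the gene of spermidine synthase at chr1:11054584-11060020 on the minus strand (ENSG00000116649), had 169, 159.6 and 163 CPM in C4-2 ARv7 libraries, against 139, 157 and 173 CPM in C4-2 control libraries. The control libraries spread on both sides of the ARv7 libraries. The log2 fold change was 0.06, with a 95% interval of -0.09 to 0.20 and an adjusted p of 0.515 by edgeR. Without the C4-2 control library of replicate 3 it was 0.13 with an adjusted p of 0.0401 by edgeR, which passes the threshold. In 22Rv-1 it had 55.3, 52.3 and 53.6 CPM in shARv7 libraries, against 54.15, 56.0 and 48.2 CPM in shcontrol libraries, which overlapped, with an adjusted p of 0.743 by edgeR. SRM has 2 pseudogenes in the annotation.

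**Figure D2:**
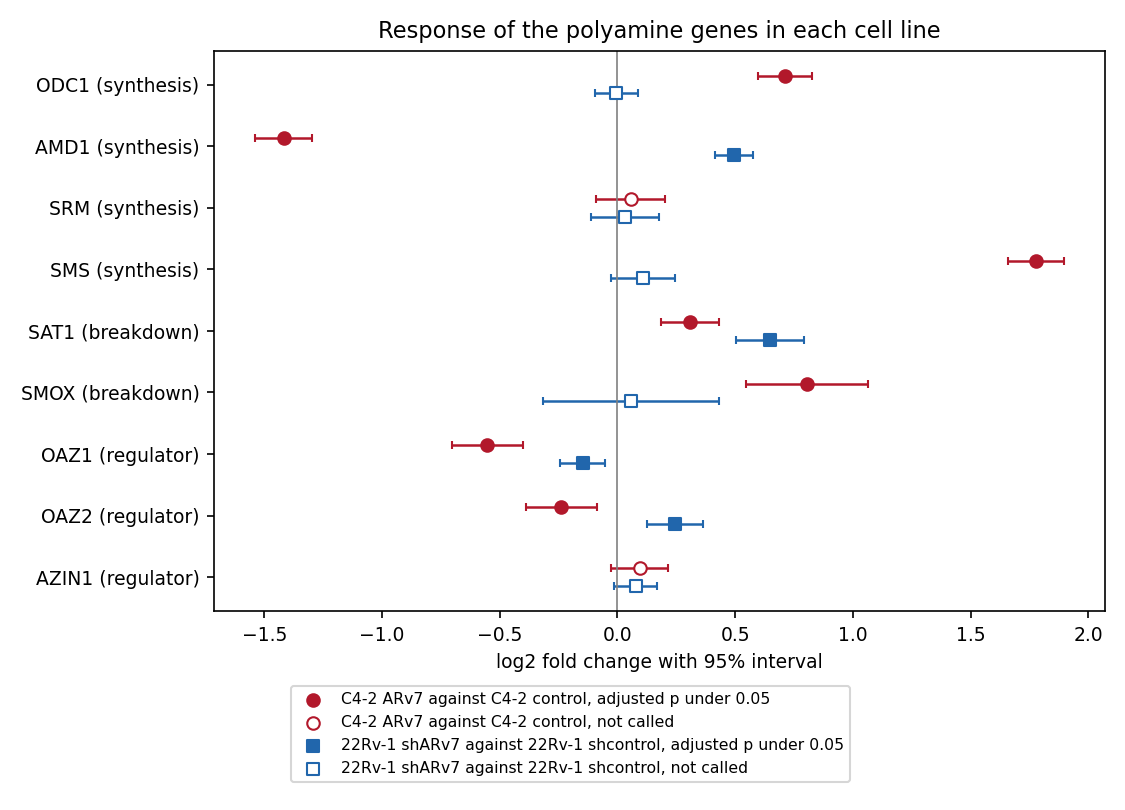
Log2 fold change of 9 polyamine genes (horizontal axis, with 95% intervals) in C4-2 ARv7 against C4-2 control cells (red circles) and 22Rv-1 shARv7 against 22Rv-1 shcontrol cells (blue squares), filled where the adjusted p was under 0.05. AMD1 lies at -1.42 in C4-2 and 0.50 in 22Rv-1, SMS at 1.78 and 0.11, and SAT1 above 0 in both lines.

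Among the breakdown genes SAT1 was higher in the altered cells of both lines. SAT1 encodes the acetyltransferase that marks spermidine and spermine for export or oxidation, and lies at chrX:23783173-23786226 on the plus strand (ENSG00000130066). It had 199, 209 and 213 CPM in C4-2 ARv7 libraries, against 171.5, 164 and 162 CPM in C4-2 control libraries. The groups did not overlap, and the log2 fold change was 0.31 (SE 0.059) with an adjusted p of 0.000147 by edgeR. SAT1 in 22Rv-1 had 76.7, 65.25 and 73.2 CPM in shARv7 libraries, against 47.4, 42.1 and 48.0 CPM in shcontrol libraries. Every depleted library was above every control library, by 0.65 (SE 0.072) on the log2 scale, or 1.57-fold, with an adjusted p of 2.85e-12 by edgeR. ARv7 was raised in one line and depleted in the other, so SAT1 did not follow the labelled direction of ARv7.

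SMOX, the gene of spermine oxidase, which turns spermine back into spermidine, lies at chr20:4120980-4187747 on the plus strand (ENSG00000088826). It had 17.8, 18.7 and 18.15 CPM in C4-2 ARv7 libraries, against 10.7, 9.36 and 10.95 CPM in C4-2 control libraries. The groups were well apart, with a log2 fold change of 0.81 (SE 0.124) and an adjusted p of 1.50e-05 by edgeR. SMOX in 22Rv-1 had 5.30, 5.65 and 6.72 CPM in shARv7 libraries, against 6.17, 5.68 and 5.21 CPM in shcontrol libraries. These overlapped, and the 95% interval of the log2 fold change, -0.32 to 0.43, was the widest of the tested polyamine genes.

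PAOX, the gene of the oxidase that acts on acetylated polyamines, lies at chr10:133379261-133391694 on the plus strand (ENSG00000148832). It had 16, 9 and 6 raw counts in C4-2 ARv7 libraries, against 0, 2 and 3 in C4-2 control libraries. The ARv7 libraries were all higher, and the ratio by library total was 6.63 with an exact 95% counting interval of 2.55 to 21.8, which covers counting error only. With no filter on low counts edgeR gave a log2 fold change of 2.47 with an adjusted p of 0.0122, at these few counts. In 22Rv-1 it had 5, 1 and 3 counts in shARv7 libraries, against 2, 6 and 2 in shcontrol libraries, a ratio of 0.95 with an interval of 0.342 to 2.60.

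Antizyme messages are translated through a frameshift that polyamines promote, at a stop codon that ends the first reading frame. The site is printed because it is the part of these messages through which polyamines act on them. It was read from GENCODE release 29 transcripts, 7 of OAZ1 and 5 of OAZ2, with the stop codon in capitals.
OAZ1: cggtggtgctccTGAtgcccctca
OAZ2: ctgtggtgctccTGAtgcccctca
The sites shared 23 of 24 bases. Read counts give the level of the message, not the use of the frameshift.

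OAZ1, the gene of the main antizyme at chr19:2269509-2273490 on the plus strand (ENSG00000104904), had 323, 315 and 297 CPM in C4-2 ARv7 libraries, against 394, 460.1 and 507 CPM in C4-2 control libraries. All ARv7 libraries were below the control libraries, which were spread widely. The log2 fold change was -0.55 (SE 0.072) with an adjusted p of 2.05e-06 by edgeR. OAZ1 in 22Rv-1 had 258, 261 and 261 CPM in shARv7 libraries, against 291, 305 and 272 CPM in shcontrol libraries. The depleted cells were again lower without overlap, by a log2 fold change of -0.15 with an adjusted p of 0.00793 by edgeR. That call was lost without the 22Rv-1 shcontrol library of replicate 2, at -0.11 with an adjusted p of 0.102 by edgeR, and with total counts in place of TMM, with an adjusted p of 0.0759 by edgeR. AC005258.1 overlaps OAZ1 on the same strand, and JSRP1 overlaps it on the other strand. On the same strand, ODC1 also overlaps SNORA80B and PAOX overlaps AL360181.3.

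OAZ2, a second antizyme at chr15:64687573-64703281 on the minus strand (ENSG00000180304), had 107, 101 and 105 CPM in C4-2 ARv7 libraries, against 110.3, 121 and 135.5 CPM in C4-2 control libraries. The control libraries were all higher, the nearest by only a few CPM, and the log2 fold change was -0.24 (SE 0.072) with an adjusted p of 0.00761 by edgeR. With total counts in place of TMM it was -0.09 and no longer called, with an adjusted p of 0.268 by edgeR. In 22Rv-1 it had 101, 104 and 112 CPM in shARv7 libraries, against 92.4, 87.9 and 87.7 CPM in shcontrol libraries. There the depleted cells were higher without overlap, by 0.25 (SE 0.060) on the log2 scale with an adjusted p of 0.000377 by edgeR. OAZ2 overlaps 3 genes on the other strand, whose reads cannot be told apart because the strand of the libraries is not given.

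AZIN1, the gene of antizyme inhibitor 1 at chr8:102826308-102893864 on the minus strand (ENSG00000155096), had 209, 223 and 224 CPM in C4-2 ARv7 libraries, against 207, 197 and 205 CPM in C4-2 control libraries. The ARv7 libraries were higher by a margin that the test did not call, with a log2 fold change of 0.10 and an adjusted p of 0.166 by edgeR. In 22Rv-1 it had 355, 354 and 341.5 CPM in shARv7 libraries, against 331, 325 and 342 CPM in shcontrol libraries, with a log2 fold change of 0.08 and an adjusted p of 0.154 by edgeR. AZIN1 overlaps 3 genes on the other strand, AZIN1-AS1 among them. With total counts both were called, at 0.24 with an adjusted p of 0.00162 in C4-2 and 0.12 with an adjusted p of 0.0179 in 22Rv-1 by edgeR. In 22Rv-1 it was also called without the shcontrol library of replicate 3, with an adjusted p of 0.0425 by edgeR.

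Whether the responses differed between the lines was tested in a fit of all 12 libraries, as the C4-2 log2 response minus the 22Rv-1 log2 response. Of the 9 genes, 7 were called, against 50.2% of all 14235 genes tested. AMD1 differed most, by -1.90 (SE 0.072) with an adjusted p of 1.06e-22 by edgeR, and SMS by 1.69 (SE 0.082) with an adjusted p of 1.67e-19. ODC1 differed by 0.73 and SMOX by 0.76, both more positive in C4-2. SAT1, OAZ1 and OAZ2 differed by -0.32, -0.39 and -0.47, each more negative or less positive in C4-2. SRM differed by 0.04 with a 95% interval of -0.16 to 0.24, and AZIN1 by 0.03 with an interval of -0.12 to 0.18. The manipulations ran in opposite directions, so a gene that is higher with overexpression and lower with depletion gets a positive difference.

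Ratios within a library compare genes per length, on the scale of log2 FPKM, and do not depend on the scaling between libraries. The log2 ratio of ODC1 to its antizyme gene OAZ1 was 1.01, 1.03 and 1.12 in C4-2 ARv7 libraries, against -0.07, -0.22 and -0.31 in C4-2 control libraries. The mean difference was 1.26 with no overlap. In 22Rv-1 the ratio averaged 0.87 ± 0.09 in shARv7 libraries and 0.73 ± 0.11 in shcontrol libraries, which overlapped (SD, n = 3 each).

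The ratio of the decarboxylase genes was lower in C4-2 ARv7 cells and higher in 22Rv-1 shARv7 cells than in their controls. With the deposited lengths the log2 ratio of AMD1 to ODC1 was -1.59, -1.45 and -1.50 in C4-2 ARv7 libraries, against 0.72, 0.62 and 0.52 in C4-2 control libraries, a mean difference of -2.13. In 22Rv-1 it was -0.46, -0.42 and -0.33 in shARv7 libraries, against -0.95, -0.91 and -0.86 in shcontrol libraries, a mean difference of 0.50. The libraries of each pair did not overlap, and the sign of the difference was opposite in the lines. SMS to SRM averaged 1.48 ± 0.06 in C4-2 ARv7 cells and -0.23 ± 0.11 in C4-2 control cells, while in 22Rv-1 it averaged 0.12 ± 0.05 in shARv7 cells and 0.05 ± 0.13 in shcontrol cells (SD, n = 3 each).

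SAT1 to ODC1 sets breakdown against the first step of synthesis. Its log2 ratio averaged -1.18 ± 0.06 in C4-2 ARv7 cells and -0.78 ± 0.11 in C4-2 control cells, and -2.27 ± 0.12 in 22Rv-1 shARv7 cells and -2.93 ± 0.08 in 22Rv-1 shcontrol cells (SD, n = 3 each). It was lower in C4-2 ARv7 cells and higher in 22Rv-1 shARv7 cells than in their controls, without overlap. The ratio of OAZ2 to OAZ1 was higher in the altered cells of both lines, by 0.31 in C4-2 and 0.39 in 22Rv-1. The level of a ratio depends on the gene lengths in the deposited table, such as 10193 bases for AMD1 where its longest protein-coding GENCODE transcript has 3438, while the difference between groups does not. With the longest transcript lengths, an alternative chosen after seeing the data, AMD1 to ODC1 was -0.10 to 0.04 in C4-2 ARv7 libraries and 2.01 to 2.22 in C4-2 control libraries, so the sign of the ratio rests on the lengths used. ODC1 to OAZ1 was then -0.50 to -0.39 in C4-2 ARv7 libraries and -1.82 to -1.58 in C4-2 control libraries.

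**Figure D3:**
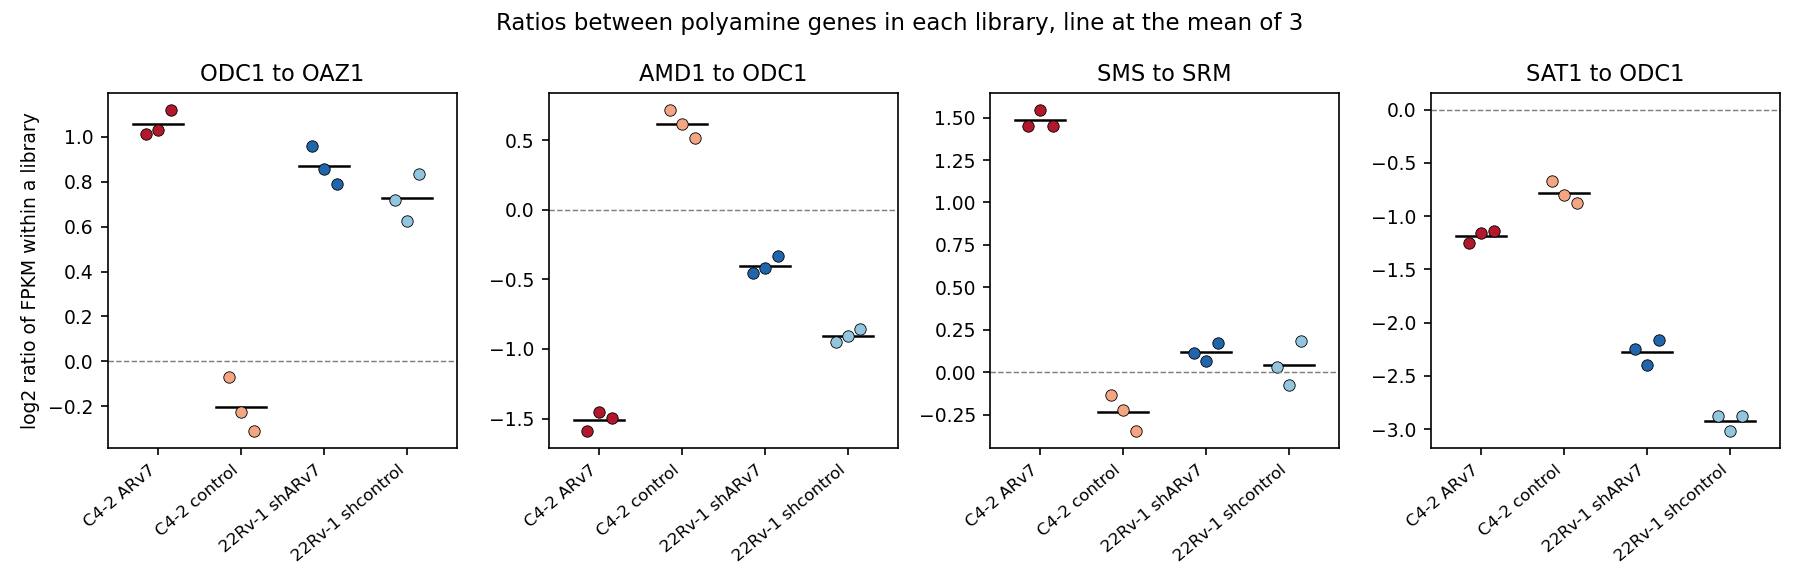
Log2 ratio of FPKM between pairs of polyamine genes within each library with the deposited gene lengths (vertical axis, dashed line at equal FPKM), with a line at the mean of the 3 libraries of a group. ODC1 to OAZ1 is above 1.0 in C4-2 ARv7 libraries and below 0 in C4-2 control libraries, and AMD1 to ODC1 is below 0 in every group but C4-2 control.

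Before any change in ARv7 the lines differed in all 9 tested genes, against 83.4% of the 14235 genes tested, 42.5% higher and 40.9% lower. This comparison uses the control libraries of the comparisons above. In 22Rv-1 shcontrol cells relative to C4-2 control cells, 7 genes were lower, SAT1 by the most at -1.85 on the log2 scale, followed by SRM at -1.57, SMS at -1.29 and AMD1 at -1.24. SMOX, OAZ1 and OAZ2 were lower by -0.86, -0.65 and -0.45. AZIN1 was higher by 0.71 and ODC1 by 0.29 (all adjusted p at most 5.50e-06 by edgeR). With total counts the median over all genes was 0.18, compared with 0.04 under TMM, and all 9 calls held. Line and vector cannot be told apart from anything else that differed between these cultures.

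Ordered over the 4 groups by mean CPM, ODC1 was lowest in C4-2 control at 319 CPM, then 22Rv-1 shARv7 at 386 and 22Rv-1 shcontrol at 388.5, which did not differ beyond their spread (adjusted p = 0.921 by edgeR), and highest in C4-2 ARv7 at 526. AMD1 ran 673 CPM in C4-2 ARv7, 758 in 22Rv-1 shcontrol, 1066 in 22Rv-1 shARv7 and 1784 in C4-2 control, and each neighbour differed. SRM and SMS both had the 22Rv-1 groups lowest, at 52.8 to 53.8 and 58.1 to 62.4 CPM, without a call between them, and the C4-2 groups of SRM had none either. SMOX ran 5.69 CPM in 22Rv-1 shcontrol, 5.89 in 22Rv-1 shARv7, 10.3 in C4-2 control and 18.2 in C4-2 ARv7, with no call between the 22Rv-1 groups. SAT1 ran 45.8 CPM in 22Rv-1 shcontrol, 71.7 in 22Rv-1 shARv7, 166 in C4-2 control and 207 in C4-2 ARv7, with each neighbour called. For OAZ1 the 3 lowest groups, 22Rv-1 shARv7 at 260.2, 22Rv-1 shcontrol at 289 and C4-2 ARv7 at 311.5 CPM, had no call between neighbours (adjusted p = 0.0528 and 0.116 by edgeR), and C4-2 control stood above them at 454. OAZ2 was within 89.3 to 122 CPM in all groups, and 22Rv-1 shARv7 and C4-2 ARv7 had no call between them. AZIN1 stood at 203 and 219 CPM in the C4-2 groups and 332.5 and 350.0 CPM in the 22Rv-1 groups, with a call only between the lines. In that fit the shares of all genes called were 56.1% for C4-2 ARv7 against C4-2 control, 42.4% for 22Rv-1 shARv7 against 22Rv-1 shcontrol, 83.3% for 22Rv-1 shARv7 against C4-2 control, 80.9% for 22Rv-1 shcontrol against C4-2 ARv7 and 79.8% for 22Rv-1 shARv7 against C4-2 ARv7.

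The genes most like each member over the 12 libraries were taken by Pearson's r of log2 CPM among 11147 genes. These values are a description over libraries that share 4 groups. AMD1 was followed most closely by TBX3 at 0.993, CPEB2 at 0.990 and MID2 at 0.987. SMS was nearest to B2M at 0.9985, and also to NPC1 at 0.993, which was among the nearest to SMOX as well at 0.991. ODC1 was nearest to C17orf58 at 0.980, SRM to OGDH at 0.999, SAT1 to RETREG1 at 0.999, OAZ1 to GNAS at 0.988, OAZ2 to TUFM at 0.977 and AZIN1 to ZDBF2 at 0.996. PAOX, at its few counts, reached only 0.914 with CHCHD5.

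Genes around the pathway were described from 7 lists, 56 genes in all, of which 44 were tested in each line. In C4-2 cells 18 were higher and 15 lower, with a median log2 fold change of 0.02, and in 22Rv-1 cells 8 were higher and 15 lower, with a median of -0.02. The shares called over all genes were those given above. In the supply of arginine and ornithine, 3 genes were higher and 3 lower of 9 in C4-2, and 2 higher and 4 lower of 9 in 22Rv-1. AZIN2, higher in 22Rv-1 at 0.84, was in this list and in that of other polyamine genes, so it is counted in both. ASS1, argininosuccinate synthase, averaged 236 ± 4.63 CPM in 22Rv-1 shARv7 cells and 555 ± 31.0 CPM in 22Rv-1 shcontrol cells, a log2 fold change of -1.23. It was also lower in C4-2 ARv7 cells, by -0.58. The cationic amino acid transporters SLC7A1 and SLC7A2 were lower in the altered cells of both lines, at -0.27 and -1.0 in C4-2 and -0.64 and -0.50 in 22Rv-1. OAT, ornithine aminotransferase, was higher in 22Rv-1 shARv7 cells at 0.93 and was not called in C4-2 at 0.08.

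The methionine cycle, which feeds AMD1 its substrate, had 4 genes higher and 3 lower of 9 in C4-2, and 2 higher and 3 lower of 10 in 22Rv-1. GNMT, a glycine methyltransferase that consumes S-adenosylmethionine, averaged 16.8 ± 0.650 CPM in C4-2 ARv7 cells and 4.47 ± 1.44 CPM in C4-2 control cells, a log2 fold change of 1.90. MTR, methionine synthase, was higher in C4-2 ARv7 cells at 0.77 and lower in 22Rv-1 shARv7 cells at -0.21. AHCY and AHCYL1 were called in 22Rv-1 at 0.28 and -0.31 and had 0.02 and 0.02 in C4-2, not called. Salvage of methylthioadenosine, the by-product of the synthases, had 3 genes higher and 2 lower of 6 in C4-2 and 2 lower of 6 in 22Rv-1. MTAP, its first enzyme, was higher in C4-2 ARv7 cells at 0.56. ADI1 was higher in C4-2 ARv7 cells at 0.27 and lower in 22Rv-1 shARv7 cells at -0.44, ENOPH1 was lower in C4-2 at -0.41 and GOT1 lower in 22Rv-1 at -0.39.

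Of the transport genes, 6 were higher and 2 lower of 10 in C4-2 at a median of 0.29, and 2 were higher and 6 lower of 10 in 22Rv-1 at a median of -0.33. SLC7A5, an amino acid transporter, averaged 20.1 ± 2.31 CPM in C4-2 ARv7 cells and 12.7 ± 2.26 CPM in C4-2 control cells, and 2134 ± 63.2 CPM in 22Rv-1 shARv7 cells and 3675 ± 199 CPM in 22Rv-1 shcontrol cells. Its partner SLC3A2 was lower in both, at -0.82 in C4-2 and -0.60 in 22Rv-1. ATP13A2, a lysosomal polyamine exporter, was lower in C4-2 ARv7 cells at -1.03 and had 0.08 in 22Rv-1, not called. SLC22A3, an organic cation transporter, averaged 0.805 ± 0.580 CPM in 22Rv-1 shARv7 cells and 8.87 ± 1.2 CPM in 22Rv-1 shcontrol cells, a log2 fold change of -3.44, and was higher in C4-2 ARv7 cells at 0.33.

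Among genes of hypusine, the modification of the translation factor eIF5A made from spermidine, 1 was higher and 1 lower of 4 in C4-2, and 1 was higher in 22Rv-1. EIF5A2 was higher in the altered cells of both lines, at 0.35 in C4-2 and 0.55 in 22Rv-1, and DOHH was lower in C4-2 at -0.24. Of the other polyamine genes, 2 of 4 were lower in C4-2, SAT2 at -0.39 and AOC1 at -1.42 (SE 0.421). AOC1 was low, at 0.55 ± 0.24 CPM in C4-2 ARv7 cells and 1.50 ± 0.22 CPM in C4-2 control cells (SD, n = 3 each). In 22Rv-1, 1 of 3 was higher, AZIN2 at 0.84. Of the MYC network, MYC was higher in the altered cells of both lines, at 0.39 in C4-2 and 0.24 in 22Rv-1. MAX, the partner with which MYC binds DNA, and MXI1, which pairs with MAX and opposes MYC, were lower in C4-2 ARv7 cells, at -0.52 and -0.49, and were not called in 22Rv-1 at 0.15 and -0.02.

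**Figure D4:**
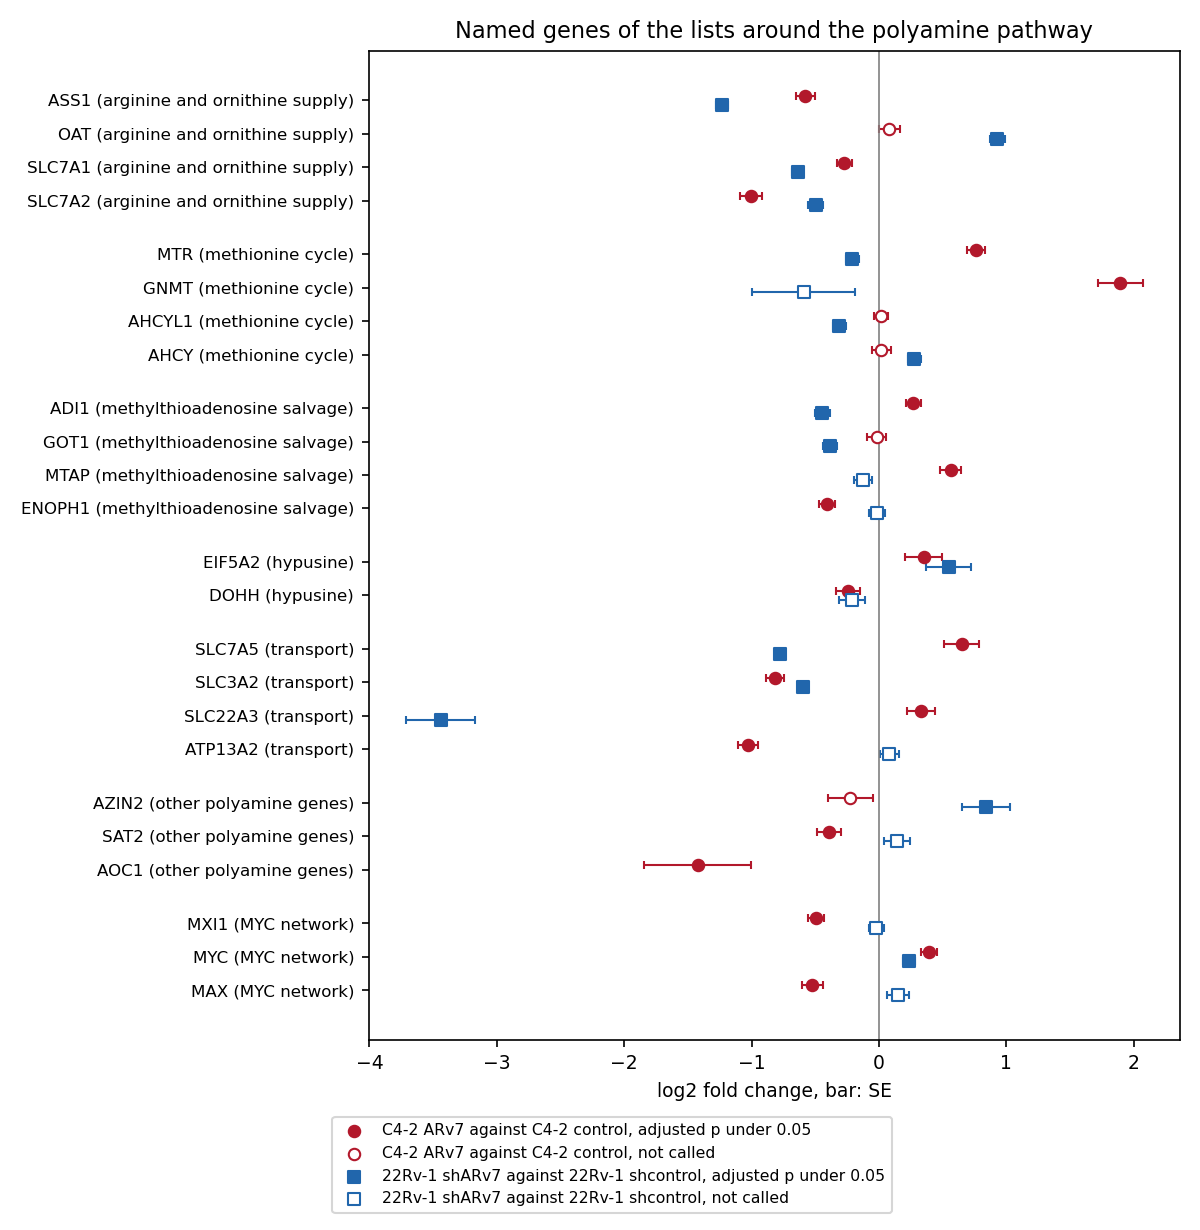
Log2 fold change (horizontal axis, bar: SE) of the named genes of 7 lists around the polyamine pathway, in C4-2 ARv7 against C4-2 control cells (red circles) and 22Rv-1 shARv7 against 22Rv-1 shcontrol cells (blue squares), filled where the adjusted p was under 0.05. AOC1 was not tested in 22Rv-1, ASS1 lies below 0 in both lines and SLC7A5 above 0 in C4-2 and below 0 in 22Rv-1.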

How the data were processed

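Total RNA was sequenced from 12 dishes of 2 prostate cancer lines. Per the labels' protocols, reads were trimmed with Cutadapt 2.7. The sources used here give no aligner, counting tool or strandedness. The deposited table holds raw read counts per gene and FPKM, which the authors made as count over gene length and library total, as 100% of the values show. Of its 19974 lines, 1 had no gene identifier and was left out. The labels name hg18, but 19869 of 19876 identifiers matched start or end in GENCODE release 29 on GRCh38 within 10000 bp, so coordinates are given as GRCh38.

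Counts were tested with edgeR 4.0.16 in R 4.3.3 (filterByExpr, TMM, glmQLFit, glmQLFTest), each line on its own, and all 12 libraries for differences between lines. SE values are derived from the F statistic. The fits were tested on simulated data. CPM are TMM-normalised over all 12 libraries. Ratios use FPKM as deposited. DESeq2 1.42.0 and limma 3.58.1 on log2(FPKM + 1) and log2(FPKM + 0.1) were alternatives, beside other scalings, filters and leaving out libraries. Intervals cover counting error only where they are counting intervals. The text names all 10 polyamine genes, up to 4 called genes per related list with the smallest adjusted p in either line, and genes among the 3 most alike to each member. Members and lists were chosen with earlier results of these data known. A check of the targeted gene is not reported here.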

Additional observations from a re-analysis of the deposited data

Results flagged for a closer look

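These genes were called in the test of the difference itself, by edgeR over all 12 libraries. The difference is the C4-2 log2 response to ARv7 overexpression minus the 22Rv-1 log2 response to ARv7 depletion. As the manipulations ran in opposite directions, a gene that follows ARv7 in the same way in both lines also gets a difference. AMD1 differed by -1.90 (adjusted p 1.06e-22), being lower in C4-2 ARv7 cells and higher in 22Rv-1 shARv7 cells. SMS differed by 1.69 (adjusted p 1.67e-19), and ODC1 by 0.73 (adjusted p 1.12e-10), with neither called in 22Rv-1. SMOX differed by 0.76 (adjusted p 0.00304). SAT1 differed by -0.32 (adjusted p 0.00353), with both responses positive. OAZ1 differed by -0.39 (adjusted p 0.000403), with both negative, and OAZ2 by -0.47 (adjusted p 6.92e-05), with opposite signs. Over all genes 50.2% were called in the same test.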

How the results depend on the processing

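In C4-2, ODC1, AMD1, SMS, SAT1, SMOX and OAZ1 kept their direction and call in all 16 alternatives, and in 22Rv-1 so did AMD1, SAT1 and OAZ2. Directions turned for genes that were not called. ODC1 in 22Rv-1 was 0.043 with total counts, 0.016 with a mean of at least 5 CPM, 0.041 on log2(FPKM + 1) and 0.042 on log2(FPKM + 0.1), and -0.045 to 0.028 with 1 library left out. With 1 library left out, SRM ran from -0.024 to 0.131 in C4-2, from -0.034 to 0.072 in 22Rv-1 and from -0.043 to 0.127 for the difference, and SMOX in 22Rv-1 from -0.053 to 0.128. On FPKM in limma, 2237 genes were lower in C4-2 with a pseudocount of 1 and 2220 with 0.1, against 3776. Calls were gained or lost with total counts and on FPKM for SRM, OAZ2 and AZIN1 in C4-2 and for OAZ1 and AZIN1 in 22Rv-1. On FPKM, SMS in 22Rv-1 was called (adjusted p 0.0278 by limma), and the SAT1 difference was not with a pseudocount of 1 (adjusted p 0.0564 by limma). In the fit of all libraries OAZ1 in 22Rv-1 was not called (adjusted p 0.0528 by edgeR). The cause was not tested. With a replicate block 7310 genes were called in C4-2 and 6203 in 22Rv-1, against 7557 and 6467 without. It left 7 and 4 polyamine genes called. Correlations of same-numbered libraries were -0.06 to 0.02, so no pairing by number was seen. With 3 libraries in a group, such correlations cannot exclude pairing. Depth limits PAOX.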
